A study of Mus musculus with 8 samples.

Results

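The ADAM and ADAMTS proteases are 2 branches of one family of zinc metalloproteinases, read here by RNA sequencing of the mouse whole aortic tree. Members were taken by gene symbol: every ADAM, ADAMTS or ADAMTS-like gene whose name ends in a number or a number and a letter, which gave 57 of the 48587 symbols counted. They comprised 33 ADAM, 19 ADAMTS and 5 ADAMTS-like genes. The 8 libraries formed 4 groups of 2: wild-type (WT) litter controls given vehicle, WT given VitD (vitamin D), mice labelled as carrying a Tet2 knockout restricted to vascular smooth muscle cells (VSMC) given vehicle, and mice with that knockout given VitD. The series concerns TET2, an enzyme that oxidises methylated cytosine, in the osteogenic change of smooth muscle and calcification of the aortic media. No Cre driver, dose, length of treatment or age of the mice is labelled, nor how many animals went into a library. Whether paired libraries of 1 group come from different animals is not stated either, and the p-values therefore reflect library-to-library spread that could be technical.

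ADAMs (a disintegrin and metalloproteinase) are mostly anchored in the cell membrane and shed the outer part of growth factors, cytokines, Notch receptors and adhesion molecules. ADAMTS proteases are secreted, carry thrombospondin repeats and cut matrix proteins such as versican, aggrecan and procollagen. ADAMTS-like proteins share the thrombospondin repeats and lack the protease domain; several bind fibrillin microfibrils, which are part of the elastic wall of the aorta. TIMPs and RECK restrain some of these enzymes.

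The catalytic site of the proteases holds 3 histidines that bind zinc and a glutamate. It was searched for as 11 codons (33 bases) in the longest complete coding sequence of each gene in GENCODE M21 (GRCm38/mm10). The search asked for histidine at the first, the fifth and the eleventh codon, glutamate at the second, and glycine, asparagine or serine at the eighth. The codon set allowed at the eighth place was widened after a first search for glycine alone had missed known proteases. The site was found in 9 of the 14 ADAM genes with enough counts to be tested and in all 16 such ADAMTS genes. It was found in 0 of the 5 ADAMTS-like genes. The tested ADAMs without it were Adam4, Adam5, Adam11, Adam22 and Adam23, of which Adam11, Adam22 and Adam23 are known as neural adhesion proteins without protease activity. The sites shown are those of the proteases whose counts changed in the comparison of VitD with vehicle in WT, with Adam10, Adam17 and Adamts1 for reference. They run 5′ to 3′ on the coding strand, and capitals mark the codons the search fixed.
Adam8: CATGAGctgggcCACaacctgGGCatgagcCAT
Adam9: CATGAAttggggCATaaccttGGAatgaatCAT
Adam12: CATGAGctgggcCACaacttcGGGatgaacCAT
Adam33: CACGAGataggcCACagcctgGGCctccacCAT
Adam1a: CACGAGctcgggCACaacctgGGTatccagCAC
Adam10: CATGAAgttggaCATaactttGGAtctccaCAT
Adam17: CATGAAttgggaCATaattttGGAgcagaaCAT
Adamts4: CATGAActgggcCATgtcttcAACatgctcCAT
Adamts12: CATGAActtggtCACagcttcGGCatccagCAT
Adamts2: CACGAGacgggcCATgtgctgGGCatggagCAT
Adamts14: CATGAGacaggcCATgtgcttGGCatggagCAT
Adamts10: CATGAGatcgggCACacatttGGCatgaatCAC
Adamts8: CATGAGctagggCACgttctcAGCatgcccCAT
Adamts16: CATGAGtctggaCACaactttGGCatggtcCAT
Adamts1: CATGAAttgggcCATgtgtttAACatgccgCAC

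In the 6 ADAM genes Adam8, Adam9, Adam12, Adam33, Adam1a and Adam17 the site lay within 1 exon, for example in exon 11 of Adam12 (chr7:133961158-133961190, minus strand) and exon 11 of Adam33 (chr2:131055130-131055162, minus strand). In the ADAMTS genes shown it was split between neighbouring exons, as in exons 3 and 4 of Adamts4 (chr1:171253210-171253915, plus strand) and exons 9 and 10 of Adamts10 (chr17:33538157-33538279, plus strand). Over all 39 members with the site, the eighth codon was glycine in 33, asparagine in 5 and serine in 1. The 5 with asparagine were Adamts1, Adamts4, Adamts9, Adamts15 and Adamts20, all in the proteoglycan-cutting class, and the serine was in Adamts8. Among tested members, pairs of ADAM sites shared 17 to 29 of 33 bases, pairs of ADAMTS sites 16 to 30, and pairs of 1 ADAM and 1 ADAMTS site 15 to 30. The site of Adam1a was identical to that of Adam1b. How reads that map to both were counted is not stated, so both values are uncertain.

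Some properties of the libraries bear on what follows. Total counts ran from 15679274 to 22332149 per library. Tet2 itself was not lower in the libraries labelled knockout than in WT, under vehicle (log2 difference 0.18, adjusted p = 1) or under VitD (0.74, adjusted p = 0.457, edgeR). In WT it was lower under VitD than under vehicle (log2 -0.83, adjusted p = 0.0305). The sources used here do not give where its deleted part lies. The number in each library's name falls into a lower or an upper range, which the labels do not call batches. Both WT VitD libraries and replicate 1 of knockout VitD were in the upper range, and every vehicle library and replicate 2 of knockout VitD were in the lower one. WT VitD and WT vehicle therefore have no library in a common range, and a fit with the range as a covariate takes its size from the 2 knockout VitD libraries. Of the marker sums, those for smooth muscle (8 of 8 genes detected) were 31030 to 33138 CPM (counts scaled to the effective library size) in the 4 vehicle libraries, 16042 and 23764 in WT VitD, and 21586 and 30373 in replicates 1 and 2 of knockout VitD. Macrophage markers (8 of 8 detected) summed to 537 to 860.0 CPM in vehicle libraries, 2409 and 2887 in WT VitD, and 2484 and 1401 in knockout VitD. Of the VitD libraries, replicate 2 of knockout VitD lay nearest the vehicle libraries in both sums. Endothelial sums (6 genes) were 1349 to 1834 CPM under vehicle, 2688 and 2265 in WT VitD, and 4285 and 1276 in knockout VitD. Adipocyte sums (6 genes) were 1527 to 2394 CPM under vehicle, 2302 and 2659 in WT VitD, and 816 and 2671 in replicates 1 and 2 of knockout VitD. Neutrophil sums (3 of 6 genes passed the filter) were 8.64 and 4.04 CPM in WT vehicle and 33.3 and 62.6 in WT VitD. The higher sums came from S100a8, S100a9 and Csf3r, while Ly6g, Mpo and Elane read at most 0.249 CPM in these libraries. Mesothelial sums were 32.9 and 30.6 CPM in WT vehicle and 85.6 and 189 in WT VitD. Skeletal muscle markers reached 419 CPM in replicate 2 of WT VitD against at most 96.2 elsewhere, and thymocyte markers reached 91.2 CPM in replicate 1 of WT vehicle against at most 28 elsewhere.

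Of the 57 genes, 35 passed the filter on low counts: 14 ADAM, 16 ADAMTS and 5 ADAMTS-like. The other 22 were low-count genes and were not tested. Among them 10 ADAMs had no count in any library (Adam6a, Adam7, Adam20, Adam24, Adam26a, Adam26b, Adam28, Adam29, Adam34 and Adam39). A further 9 ADAMs had few, summed over the 8 libraries: Adam32 had 40 counts, Adam21 had 23, Adam2 had 18, Adam3 had 10, Adam30 had 7, Adam18 had 6, Adam1b had 4, Adam6b had 3 and Adam25 had 1. Many of these genes are known from testis and sperm, where the ADAM family is richest, while Adam28 is known from lymphocytes and epididymis. Of the 5 germ cell markers, Prm2 and Tnp1 had no count in any library. Prm1 and Odf1 reached at most 0.132 and 0.0621 CPM, while Acrbp read 1.13 to 9.97 CPM. The low-count ADAMTS genes were Adamts18 and Adamts19 with 31 counts each and Adamts13, the liver-made protease that cuts von Willebrand factor, with 1. In total the ADAM genes held 110046 counts, the ADAMTS genes 168813 and the ADAMTS-like genes 40856.

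Levels between genes were compared as RPKM (CPM per kilobase of the union of a gene's exons), given as mean ± SD over the 8 libraries, which spans all 4 groups. Adamts1 led at 65.4 ± 12.7 RPKM; it cuts versican and aggrecan. Adam9, a membrane sheddase, followed at 48.9 ± 12.6, and Adamts2, which removes the N-propeptide of fibrillar procollagens, at 37.0 ± 6.95. These 3 differed by less than the sum of neighbouring SDs, so their order is not firm. Next came Adamts10, a fibrillin-binding protease, at 25.5 ± 11.8, Adam10, the sheddase that makes the first cut in activated Notch, at 23.9 ± 7.58, and Adam15, known from vessel walls, at 23.4 ± 1.94. Adamtsl5 read 22 ± 8.67, Adam33 read 19 ± 13.3, Adamtsl4 read 13.3 ± 3.70 and Adam17, the sheddase of TNF, read 11.5 ± 2.27. The order depends on the group and on the length used. In WT vehicle alone Adamts10 (37.5 ± 4.64 RPKM, n = 2) stood above Adam9 (36.1 ± 2.73) and Adamts2 (26.9), and per kilobase of the longest transcript Adamts10 was second at 51.1 and Adamts15 took the place of Adamtsl4 among the 10. From Adamts10 to Adam17 each gene lay within 1 SD of the next. The steadiest of the 10 was Adam15, and Adam33 had the SD nearest its mean. The 10 highest stayed the same 10 whichever single library was left out. At the low end of the tested genes, Adamts16, Adamts17 and Adamts20 stood at 0.0811, 0.0763 and 0.0807 RPKM.

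**Figure D1:**
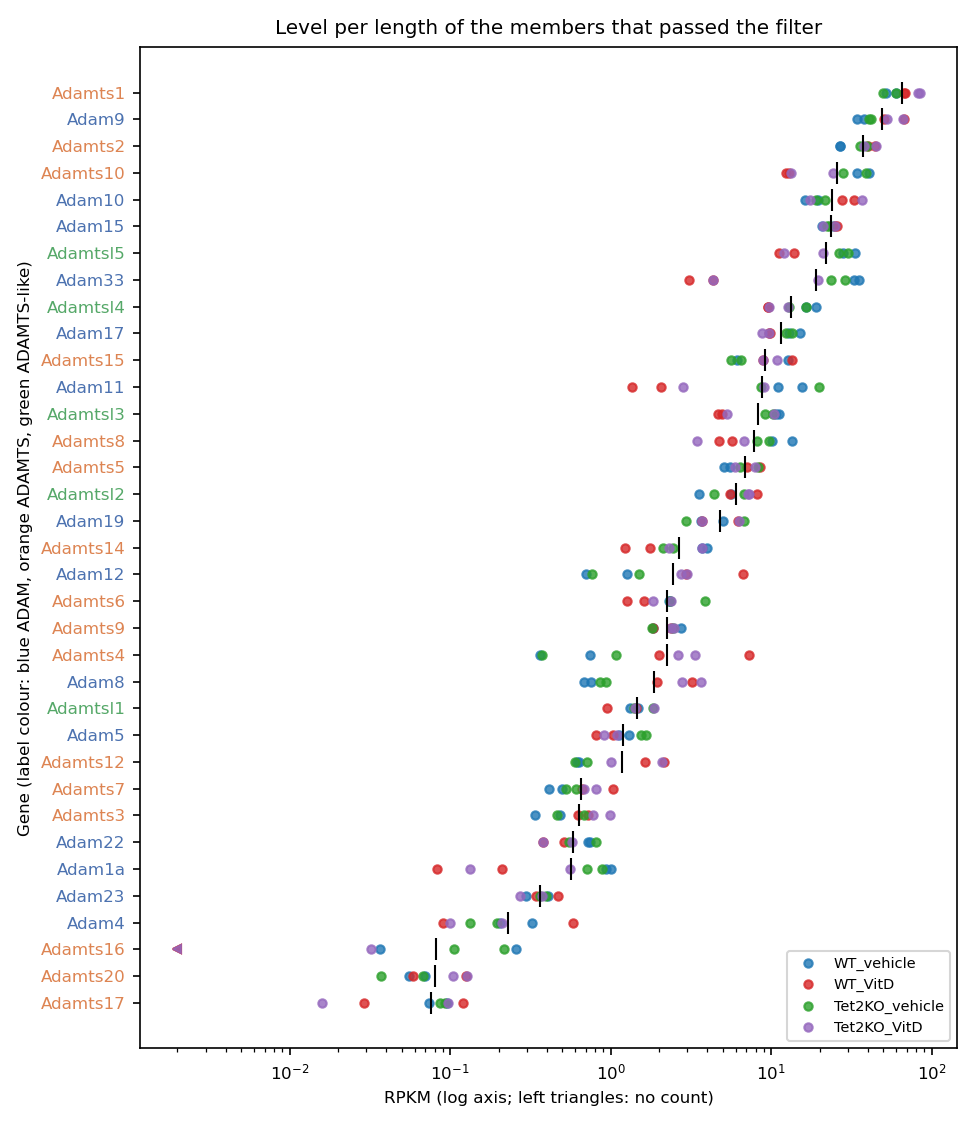
RPKM of the members in each of the 8 libraries on a log axis, ordered by mean RPKM and coloured by group, with triangles for libraries without a count. Adamts1, Adam9 and Adamts2 head the order, and Adam33 and Adam11 show the WT VitD libraries well below the vehicle libraries.

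VitD was first compared with vehicle in WT. Of the 35 tested members 16 were called (45.7%), where 20.1% of the 16194 genes tested were called. Called means an adjusted p under 0.05 from edgeR's quasi-likelihood test, with the Benjamini-Hochberg method over all genes. Higher under VitD were 6 members (10.6% of all genes were called higher): Adam8, Adam9, Adam12, Adamts2, Adamts4 and Adamts12. Lower were 10 (9.47% of all genes): Adam1a, Adam11, Adam33, Adamts8, Adamts10, Adamts14, Adamts16, Adamtsl3, Adamtsl4 and Adamtsl5. Adamts16 is counted here although it could only be called lower, as given below. These counts describe the members and were not tested against other genes. With the number range of the libraries as covariate, which rests on replicate 1 against replicate 2 of knockout VitD, 0 members and 0.358% of all genes were called. Each of the 16 kept its sign there, with log2 differences of 2.16 for Adam12, 1.44 for Adam8, -1.02 for Adam33 and -0.47 for Adamtsl5, for example. The counts without single libraries follow the description of the genes. In whole tissue, fewer cells of a type and less RNA per cell cannot be told apart.

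Among the membrane sheddases, 3 of the 8 tested rose and 1 fell. Adam8, a sheddase best known from leukocytes, read 3.17 and 3.47 CPM in the WT vehicle libraries and 9.07 and 14.8 under VitD. Both VitD libraries lay above both vehicle libraries, and the rise was 3.59-fold (log2 1.85, SE 0.315, adjusted p = 0.0108). Adam12, which cuts insulin-like growth factor binding proteins and is known from mesenchymal cells, read 13.4 and 7.46 CPM under vehicle and 31.3 and 70.0 under VitD. Its VitD libraries stood apart from vehicle but also from each other, with a rise of 4.86-fold (log2 2.28, SE 0.456, adjusted p = 0.0159). Adam9 read 157 and 141 CPM under vehicle and 206 and 277 under VitD. This was the smallest change of the 3, at 1.62-fold with an adjusted p of 0.0498, close to the threshold. Macrophage marker sums were higher in the same libraries, at 2409 and 2887 CPM against 537 and 563; their part in the result was not tested.

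Adam33, a sheddase known from smooth muscle and fibroblasts and from genetic studies of asthma, went the other way. It read 176 and 189 CPM in WT vehicle and 23.4 and 16.5 in WT VitD, with no overlap. The fall was 9.15-fold (log2 -3.19, SE 0.580, adjusted p = 0.0128). Adam11, one of the neural ADAMs without protease activity, read 62.7 and 88.6 CPM under vehicle and 11.6 and 7.64 under VitD, a fall of 7.89-fold (log2 -2.98, SE 0.579, adjusted p = 0.0148). The other members of that class, Adam22 and Adam23, were not called, with log2 differences of -0.71 and 0.22. Schwann and nerve marker sums were 36.8 and 97.2 CPM in WT vehicle and 28.9 and 21.5 in WT VitD, and smooth muscle sums were lower in the same libraries as given above; the part of either in these changes was not tested. Adam1a, the partner of Adam2 in a complex of developing sperm, read 7.52 and 7.01 CPM under vehicle and 1.59 and 0.623 under VitD, which was 6.61-fold lower (adjusted p = 0.0254). Its annotated exons overlap those of Mapkapk5 on the same strand and those of Gm42878, so its reads cannot be assigned with certainty. The germ cell sum moved from 9.51 and 10.03 CPM to 1.59 and 1.19, and nearly all of it came from Acrbp.

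Adam10 and Adam17, the broad sheddases of the family, were not called in WT. Adam10 read 96.1 and 79.9 CPM under vehicle and 135 and 161 under VitD (log2 0.75, SE 0.312, adjusted p = 0.114). Adam17 read 108 and 91.9 CPM under vehicle and 70.0 and 69.4 under VitD (log2 -0.52, SE 0.166, adjusted p = 0.0559). Adam10 was called in 5 of 18 alternatives, with a log2 difference from -0.32 to 0.91, and Adam17 in 4 of 18. In both genes the groups did not overlap, which was so for 26 of the 35 members and for 69.2% of all genes tested. Adam15, with 127 and 149 CPM under vehicle and 154 and 159 under VitD, differed by a log2 of 0.18 (adjusted p = 0.490).

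**Figure D2:**
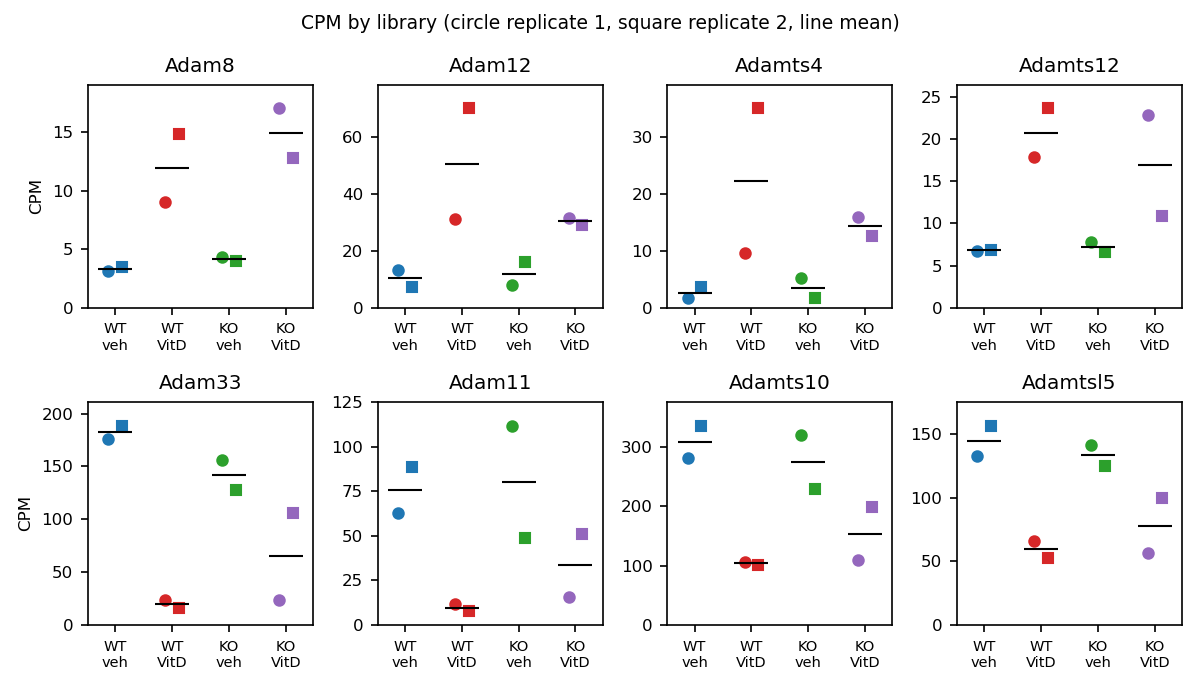
CPM of 8 called members in each library, with circles for replicate 1, squares for replicate 2 and a line for the mean of 2 libraries. In the upper row WT VitD lies above WT vehicle and in the lower row below it; replicate 2 of knockout VitD sits nearer the vehicle libraries in the lower row.

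In the secreted ADAMTS proteases the classes moved in mixed directions. Of the 7 proteoglycanases, 1 rose and 1 fell. Adamts4, an aggrecanase, read 1.74 and 3.59 CPM in WT vehicle and 9.66 and 35.1 in WT VitD. The 2 VitD libraries differed widely from each other, yet both exceeded vehicle, with a rise of 8.36-fold (log2 3.06, SE 0.687, adjusted p = 0.0210). Adamts8 read 46.4 and 62.4 CPM under vehicle and 26.3 and 21.8 under VitD, 2.26-fold lower (adjusted p = 0.0316). Adamts8 lies next to Adamts15 on chromosome 9, on the opposite strand and 20.1 kb away; Adamts15 read 131 and 63.7 CPM under vehicle and 92.0 and 140 under VitD, with overlap. Adamts1 and Adamts5, the aggrecanases that neighbour each other on chromosome 16, were not called. Adamts1 read 319 and 274 CPM under vehicle and 358 and 362 under VitD (log2 0.28, adjusted p = 0.321). Adamts5 read 54.6 and 60.0 CPM under vehicle and 76.3 and 91.6 under VitD (log2 0.55, adjusted p = 0.0911). The remaining proteoglycanases, Adamts9 and Adamts20, had overlapping groups.

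The 3 procollagen N-propeptidases split. Adamts2 read 252 CPM in each WT vehicle library and 374 and 413 in WT VitD, 1.56-fold higher (log2 0.65, SE 0.195, adjusted p = 0.0481). Its adjusted p was close to the threshold, and it was not called with the replicate block or the number range as covariate. Adamts14, which acts on the same propeptides at a far lower level in this tissue (2.65 ± 1.02 RPKM), read 20.8 and 19.1 CPM under vehicle and 9.13 and 6.40 under VitD. That fall was 2.57-fold (log2 -1.36, SE 0.292, adjusted p = 0.0191). Adamts3 was not called, at a log2 of 0.72 (adjusted p = 0.194).

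Of the 2 proteases that cut cartilage oligomeric matrix protein (COMP), Adamts12 rose. It read 6.71 and 6.89 CPM under vehicle and 17.9 and 23.6 under VitD, 3.05-fold higher (log2 1.61, SE 0.348, adjusted p = 0.0195). Adamts7, a gene near a human coronary disease locus, read 2.61 and 3.13 CPM under vehicle and 4.17 and 6.51 under VitD, a log2 difference of 0.89 that missed the threshold (adjusted p = 0.0960). Comp itself read 116 and 114 CPM under vehicle and 190 and 149 under VitD and was not called.

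The fibrillin-associated class held Adamts6, Adamts10, Adamtsl2, Adamtsl4 and Adamtsl5, of which 3 fell and 0 rose. Adamts10 read 282 and 336 CPM in WT vehicle and 107 and 102 in WT VitD. The VitD libraries agreed closely and the fall was 2.96-fold (log2 -1.56, SE 0.299, adjusted p = 0.0141). Adamts6, its nearest relative in the family, read 18 and 18.3 CPM under vehicle and 9.80 and 12.5 under VitD, without a call (log2 -0.70, adjusted p = 0.105). Fbn1, the gene for fibrillin-1, was not called: it read 453 and 465 CPM under vehicle and 443 and 619 under VitD.

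The ADAMTS-like genes fell in 3 of 5 cases, of which Adamtsl4 and Adamtsl5 are also counted in the fibrillin-associated class. Adamtsl5, a fibrillin-binding protein, read 132 and 156 CPM in WT vehicle and 65.7 and 52.8 in WT VitD, 2.44-fold lower (log2 -1.28, SE 0.270, adjusted p = 0.0182). Adamtsl3, also called punctin-2, read 83.2 and 86.3 CPM under vehicle and 38.5 and 35.9 under VitD, 2.28-fold lower (log2 -1.19, SE 0.279, adjusted p = 0.0238). Adamtsl4, mutated in a lens dislocation disorder, read 69.3 and 80.0 CPM under vehicle and 39.8 and 40.0 under VitD, 1.87-fold lower (log2 -0.90, SE 0.199, adjusted p = 0.0203). In all 3 the VitD libraries lay close together and below vehicle. Adamtsl2, which binds latent TGF-beta binding protein, read 44.7 and 28.2 CPM under vehicle and 64.9 and 44.4 under VitD, with overlap (log2 0.58, adjusted p = 0.175). Adamtsl1 read 16.9 and 18.9 CPM under vehicle and 12 and 18.4 under VitD, also with overlap (log2 -0.23, adjusted p = 0.553).

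Adamts16, which cuts fibronectin and has been studied as a blood pressure gene, rested on few reads. It had 4 and 31 counts in the WT vehicle libraries and none in either WT VitD library. Against a floor of 3 counts over the WT VitD group it was at least 11-fold lower under VitD. It passed the filter through vehicle libraries alone (24 and 13 counts in knockout vehicle, 0 and 5 in knockout VitD), so a call could only point this way, and its call (adjusted p = 0.0455) is given as a description; without it 9 members were lower. Its own vehicle libraries differed from each other several times over, and the floor covers counting error only.

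The subfamilies were set side by side by their counts and medians. In WT, ADAM had 3 higher and 3 lower of 14 with a median log2 difference of 0.19, and ADAMTS had 3 higher and 4 lower of 16 with a median of 0.27. The 4 lower ADAMTS genes include Adamts16, which could only be called in that direction. ADAMTS-like had 0 higher and 3 lower of 5 with a median of -0.90; the median over all genes tested was -0.03. The medians of all 3 subfamilies change with the processing; that of ADAMTS-like was -0.22 with the number range as covariate. As summed CPM, ADAMTS-like genes read 358 ± 16.5 (SD, n = 2) in WT vehicle and 206 ± 20.7 in WT VitD. ADAM genes summed to 807 ± 12.3 and 762 ± 109, and ADAMTS genes to 1156 ± 34.7 and 1187 ± 98.0 in the same groups. Only the ADAMTS-like sums of these 2 groups lay apart by more than their SDs. These sums follow the longest and most abundant genes and carry no test.

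**Figure D3:**
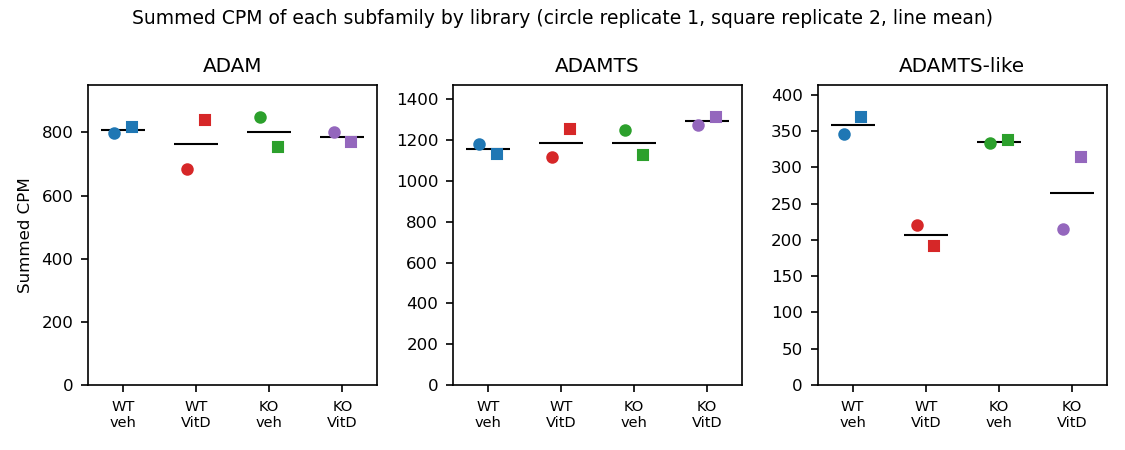
Summed CPM of all members of each subfamily in each library, with circles for replicate 1, squares for replicate 2 and a line for the group mean. The ADAM and ADAMTS sums overlap between WT groups, and the ADAMTS-like sums of WT VitD lie below all other libraries except replicate 1 of knockout VitD.

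Few of the WT calls held without single WT libraries. Without replicate 1 or replicate 2 of WT vehicle, or without replicate 2 of WT VitD, 0 members were called; without replicate 1 of WT VitD, 6 were (Adam8, Adam12, Adam33, Adamts4, Adamts12 and Adamts14). In each of these fits all 16 genes kept their sign, and the lone library of a group was assumed to vary like the other groups. Over all genes these fits called between 140 and 1007. Without either knockout vehicle library 12 members were called (11.7% and 11.9% of all genes), and without either knockout VitD library 19 (29.1% of all genes in both fits).

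In the libraries labelled knockout, VitD against vehicle gave 0 called members with edgeR, where 0.198% of all genes were called. At an unadjusted p under 0.05 there were 12 of 35 members (34.3%, against 13.3% of all genes), and DESeq2 called 4, where it called 1.65% of all genes: Adam8, Adam12, Adamts4 and Adamts12. The smallest adjusted p was that of Adam8, which read 4.36 and 3.96 CPM under vehicle and 17 and 12.8 under VitD (log2 1.84, SE 0.311, adjusted p = 0.0659). Adam12 read 8.10 and 16.0 CPM under vehicle and 31.6 and 29.1 under VitD (log2 1.33, adjusted p = 0.279). Adamts4 read 5.22 and 1.79 CPM under vehicle and 16.0 and 12.7 under VitD (log2 2.04, adjusted p = 0.266), and Adamts12 read 7.73 and 6.59 against 22.8 and 10.9 (log2 1.23, adjusted p = 0.211). In all 4 genes both VitD libraries exceeded both vehicle libraries. Groups did not overlap in 20 of 35 members and in 45.9% of all genes. Adamts1, the highest member by RPKM, read 264 and 317 CPM in knockout vehicle and 434 and 447 in knockout VitD (log2 0.60, adjusted p = 0.267, edgeR).

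The knockout VitD libraries differed from each other in the genes that were lower in WT. Adam33 read 156 and 128 CPM in knockout vehicle and 23.5 and 106 in knockout VitD, so replicate 1 was near the WT VitD level and replicate 2 was below vehicle by less. Adam11 read 112 and 49.0 CPM under vehicle and 15.9 and 51.3 under VitD. Adamts10 read 321 and 229 against 110 and 199, Adamtsl5 read 141 and 125 against 56.6 and 99.6, and Adamtsl3 read 79.8 and 70.7 against 41.1 and 80.2. In each of these 5 the second VitD library was the higher. Of the 10 members lower in WT, replicate 1 lay below both knockout vehicle libraries in 9 and replicate 2 in 7. Adamts16 is in both counts, although it passed the filter through vehicle libraries alone. Of all 1533 genes called lower in WT, 95.6% and 68.6% lay below. The median log2 ratio to the vehicle mean was -1.35 in replicate 1 and -0.42 in replicate 2. Of the 6 members higher in WT, replicate 1 lay above both vehicle libraries in 6 and replicate 2 in 5, with medians of 1.53 and 0.94; of all 1718 genes called higher in WT, 94.6% and 84.1% did so. The members' shares are near those of the called genes in general. Replicate 2 also had the higher smooth muscle sum, the lower macrophage and endothelial sums, the higher adipocyte sum and the lower library number range, as given above; their part in the difference was not tested.

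Without replicate 2 of knockout VitD, 10 members were called in that comparison, 3 higher and 7 lower, where 11.2% of all genes were called. The higher ones were Adam8, Adam10 and Adamts12, and the lower ones Adam1a, Adam11, Adam33, Adamts8, Adamts10, Adamtsl3 and Adamtsl5. Adam33 and Adam1a fell most among them and by nearly the same size. Replicate 1 stood at log2 -2.59 for Adam33 and -2.57 for Adam1a against the mean of the knockout vehicle libraries. Against the mean of the knockout vehicle libraries, replicate 2 stood at log2 -0.42 for Adam33 and -0.51 for Adam1a.

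**Figure D4:**
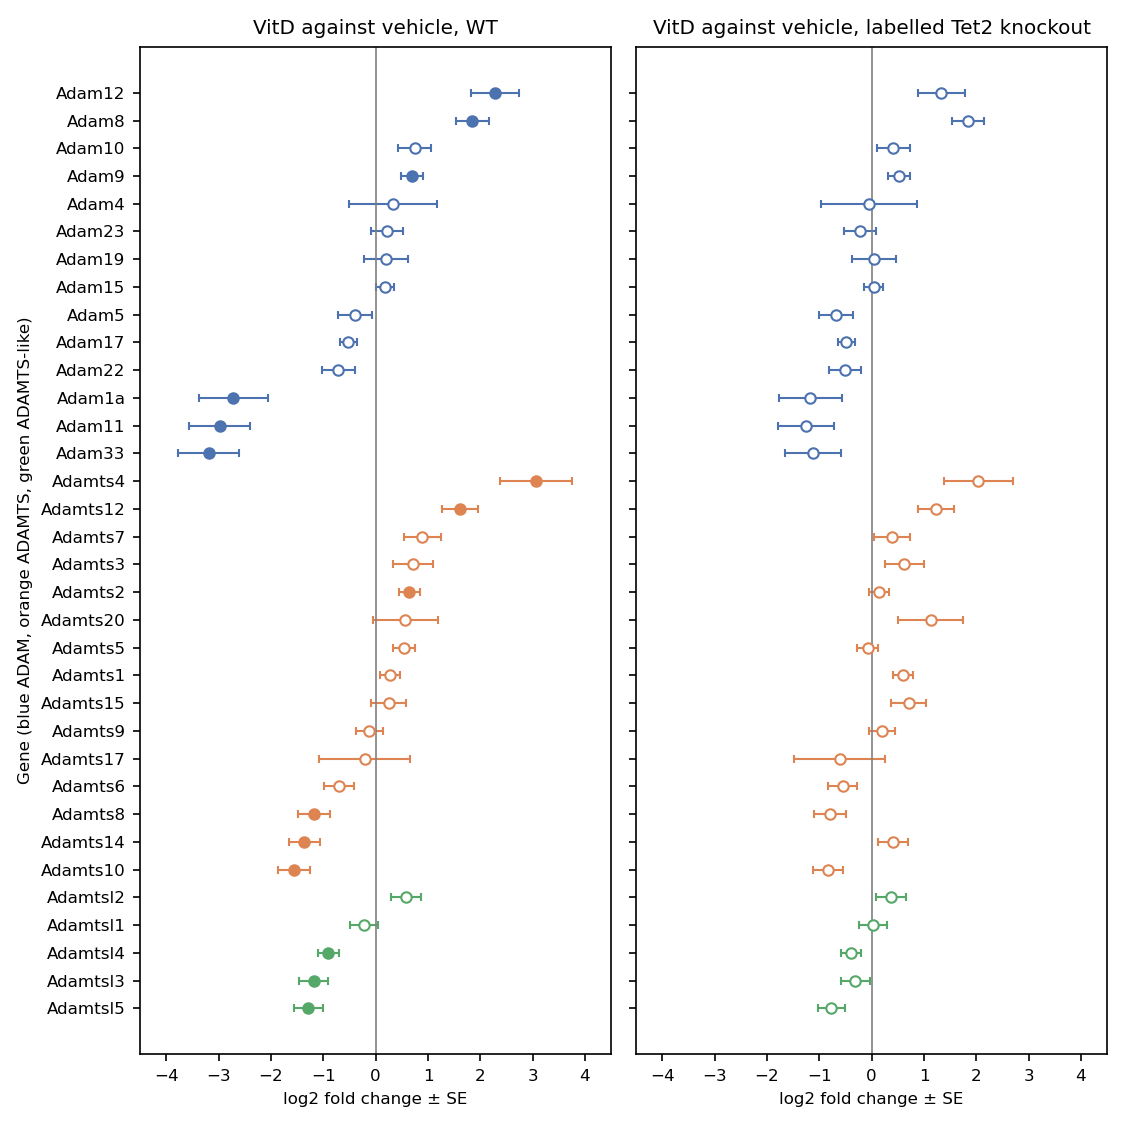
Log2 fold change ± SE of VitD against vehicle for 34 tested members in WT (left) and in libraries labelled knockout (right), filled where called; Adamts16 is not drawn because it had no count in WT VitD. Filled points lie on both sides of 0 on the left, and no point is filled on the right.

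Genotype was then compared within each treatment. Under vehicle, 0 members were called, as were 0% of all genes, with edgeR; 2 of 35 (5.71%, against 2.97% of all genes) had an unadjusted p under 0.05, and DESeq2 called 0. Those 2 were procollagen N-propeptidases and are named after their values were seen. Adamts2 read 252 CPM in each WT vehicle library and 368 and 333 in the knockout ones (log2 0.48, adjusted p = 1), and Adamts14 read 20.8 and 19.1 against 12.6 and 10.9 (log2 -0.76, adjusted p = 1). Neither met the threshold, although the libraries did not overlap, which held for 13 of 35 members and 29.8% of all genes.

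Under VitD, 0 members were called with edgeR (0% of all genes), and 4 of 35 (11.4%, close to the 10.6% of all genes) had an unadjusted p under 0.05. DESeq2 called 1, Adam11, where it called 0.343% of all genes. The 4 were Adam11, Adam33, Adamts14 and Adamtsl3, all higher in the libraries labelled knockout. Adam11 read 11.6 and 7.64 CPM in WT VitD and 15.9 and 51.3 in knockout VitD (log2 1.81, adjusted p = 0.457), and Adam33 read 23.4 and 16.5 against 23.5 and 106 (log2 1.70, adjusted p = 0.457). Replicate 2 of knockout VitD held most of both differences. Adamts14 read 9.13 and 6.40 against 11.9 and 19.3 (log2 1.01, adjusted p = 0.457). Groups did not overlap in 10 of 35 members and in 43.8% of all genes. Without replicate 1 of knockout VitD, which leaves replicate 2 alone in its group, these 4 genes were called, as were 3.97% of all genes. This comparison shares the WT VitD libraries with that of VitD against vehicle in WT.

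The genotype by VitD interaction, which asks whether the VitD difference itself varied with genotype, called 0 members and 0% of all genes with edgeR; 2 members (5.71%, against 6.21% of all genes) had an unadjusted p under 0.05 and DESeq2 called 0. Adamts14 had the smallest p. Its VitD difference was -1.36 in WT and 0.41 in the knockout libraries, an interaction of 1.77 on the log2 scale (SE 0.408, adjusted p = 0.794). Adam33 followed with differences of -3.19 and -1.13 and an interaction of 2.07 (SE 0.762, adjusted p = 0.794). Without replicate 1 of knockout VitD, which leaves replicate 2 alone in its group, the interaction of Adam33 was 2.76 on the log2 scale. Over all alternatives it ran from 0.60 to 2.76. Without a filter on low counts 3 members were called (Adam11, Adam33 and Adamts14), as were 1.44% of all genes. A p above the threshold does not show that the responses were alike.

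Genes that act with the family were read from lists chosen by known role. Their counts in WT are to be read against the 10.6% of all genes called higher and 9.47% called lower. Of 7 inhibitors, 2 rose and 3 fell in WT. These include A2m and Pzp, whose calls could only point 1 way as given below. Timp1, a broad metalloproteinase inhibitor, read 14.6 and 17.3 CPM in WT vehicle and 326 and 639 in WT VitD (log2 4.92, SE 0.376, adjusted p = 0.00109). In the knockout libraries Timp1 read 19.5 and 19.7 under vehicle and 249 and 166 under VitD and was called as well (log2 3.40, adjusted p = 0.0102). Reck, a membrane inhibitor that acts on ADAM10, read 152 and 129 CPM in WT vehicle and 82.7 and 77.5 in WT VitD (log2 -0.81, adjusted p = 0.0259). Timp3, the TIMP with the widest action on ADAM and ADAMTS enzymes, read 832 and 669 against 420 and 476 (log2 -0.74, adjusted p = 0.0451) and is named after its values were seen. The broad plasma inhibitors A2m and Pzp, which were called up and down, stayed below 5 CPM in every library. A2m read 0 and 0.0570 CPM in WT vehicle, and Pzp read 0 in both WT VitD libraries. Each call could therefore only point the way it did and is given as a description.

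Of 12 tested partners of ADAM10 and ADAM17, 1 rose, about the share of all genes, and 3 fell in WT. Rhbdf1 and Rhbdf2 encode the iRhoms that carry ADAM17 to the cell surface. Rhbdf1 read 121 and 141 CPM under vehicle and 84.8 and 77.3 under VitD (log2 -0.69, adjusted p = 0.0306), and Rhbdf2 read 34.0 and 29.6 against 19.6 and 22.1 (log2 -0.61, adjusted p = 0.0451). Frmd8, which stabilises that complex, was higher (log2 0.61, adjusted p = 0.0489). Pcsk6, a proprotein convertase, was lower (log2 -1.47, adjusted p = 0.0146). In the knockout libraries 0 of the 12 were called.

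Of 25 tested ligands and receptors that ADAMs shed, 10 rose and 3 fell in WT. Trem2, a receptor of macrophages, read 2.55 and 2.56 CPM under vehicle and 28.4 and 41.8 under VitD (log2 3.78, adjusted p = 0.00273). The macrophage sums given above were higher in the same libraries, and their part was not tested. Cx3cl1, a membrane chemokine (log2 1.72, adjusted p = 0.00779), Hbegf, a growth factor of the EGF family (log2 1.32, adjusted p = 0.00797), and Ereg, of the same family (log2 1.91, adjusted p = 0.00878), rose too. The 3 that fell, named after their values were seen, were Notch3, the Notch receptor of smooth muscle (log2 -2.17), Btc (log2 -1.81) and Notch2 (log2 -1.26). In the knockout libraries 1 of the 25 was called, Trem2 (log2 2.54, adjusted p = 0.0417).

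Of 17 tested matrix substrates, 3 rose and 1 fell in WT, a share near the 20.1% of all genes called. Thbs1, a matrix glycoprotein, read 179 and 114 CPM under vehicle and 700.0 and 1323 under VitD (log2 2.79, adjusted p = 0.00925). Acan, the gene for aggrecan, read 29.6 and 26.5 against 70.3 and 68.9 (log2 1.31, adjusted p = 0.0315). Efemp1 rose (log2 0.92, adjusted p = 0.0305) and Thbs2 fell (log2 -0.76, adjusted p = 0.0479). Of the family members whose names the symbol rule leaves out, Thsd4, an ADAMTS-like protein that promotes fibrillin assembly, read 545 and 468 CPM in WT vehicle and 220 and 156 in WT VitD (log2 -1.43, SE 0.317, adjusted p = 0.0205). Genotype under either treatment and the interaction called 0 genes of these lists.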

How the data were processed

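The 8 libraries were poly-A enriched and stranded, made from TRIZOL total RNA of the whole aortic tree, per the labels' protocols. Deposited were unnormalised read counts by gene symbol, which the authors made with Trimmomatic 0.39, STAR 2.7.8a and featureCounts 2.0.2 on mm10, per the submitters' processing notes; the sources used here do not give the annotation release, strand setting or handling of multi-mapped reads. Symbols were matched to GENCODE M21, where 46378 of 48587 and all 57 members matched 1 gene; exon unions gave RPKM.

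Counts were tested with edgeR 4.0.16 (R 4.3.3): TMM, filterByExpr (16194 genes kept), a quasi-likelihood fit of 1 mean for each group over 8 libraries (4 residual degrees of freedom) and 5 contrasts, adjusted by Benjamini-Hochberg within a contrast at 0.05. SE is the log2 fold change divided by the root of F. CPM uses TMM effective library sizes. The script was tested on simulated data.

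Members, lists and functional classes were chosen with earlier results of these data known. Given for every WT library are members called in any contrast, the 10 highest by RPKM, Adam10, Adam17 and tested ADAMTS-like genes. Knockout libraries are given for only some of them. Of each related list up to 4 called genes with the smallest p are named. Adamts5, Adamts6, Adamts7, Adamts15, Comp and Fbn1 are given in WT outside these rules, and other exceptions are marked. Alternatives were DESeq2 size factors, upper quartile scaling, DESeq2 1.42.0, limma 3.58.1 voom, no filter, 1 CPM in 2 libraries, a replicate block, the library number range, only the groups compared, each library left out and, chosen after seeing the data, removal of the transcript length trend. Replicates of a group were not identical in counts.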

Additional observations from a re-analysis of the deposited data

How the results depend on the processing

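In WT, 16 members were called by 4 alternatives as well (DESeq2 size factors, upper quartile scaling, DESeq2 and a filter of 1 CPM in 2 libraries), 17 with voom (28.8% of all genes; 15 of the 16, without Adamts4), 18 without a filter (17.2%), 15 with the transcript length trend removed (17.1%; 14 of the 16, without Adam9 and Adamts16), 19 in a fit of only the groups compared and 0 with the number range of the libraries as covariate, where 58 of 16194 genes were called. Leaving out each library in turn gave 0 to 19. Replicate numbers did not pair the samples (correlations between -0.115 and 0.138). With the replicate block 13 members were called in WT (15.3% of all genes), without Adam9, Adamts2 and Adamts16, and 0 in the other comparisons. All 16 kept their sign under each alternative in which they were tested; Adamts16 was not tested in the fit of only the groups compared. The tested members had a median exon union of 7115 bases against 4130.5 for all genes, and the correlation of deviations with transcript length was -0.290 and -0.199 in the WT VitD libraries and 0.202 and -0.0362 in WT vehicle.

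Members called for VitD in the knockout libraries numbered 4 with DESeq2, 10 without a filter (4.37% of all genes) and 0 to 10 with single libraries left out. For genotype under VitD they were 1 with DESeq2, 3 without a filter (2.18%) and 0 to 4 with a library left out. For the interaction they were 3 without a filter (Adam11, Adam33 and Adamts14), where 1.44% of all genes were called.

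Subfamily medians (log2) moved by more than the spread between replicates as follows. With the number range as covariate the WT medians were -0.101 for ADAM and -0.221 for ADAMTS-like; ADAMTS-like was 0.0920 for VitD in knockout, 0.0892 for genotype under VitD and 0.0503 for the interaction, where ADAMTS was 0.00602. The voom fit gave -0.0139 for ADAM in WT. Removing the length trend gave ADAMTS 0.438 in WT, -0.0562 for genotype under VitD and 0.0832 for the interaction, and the 1 CPM filter gave 0.202 for genotype under VitD. With single libraries left out, ADAM ranged from -0.118 to 0.210 in WT, -0.507 to -0.0508 for VitD in knockout and -0.179 to 0.0409 for the interaction. ADAMTS ranged from -0.000532 to 0.445 in WT, 0.0425 to 0.346 for genotype under VitD and -0.0968 to 0.295 for the interaction. ADAMTS-like ranged from -0.603 to 0.101 for VitD in knockout, 0.0876 to 0.615 for genotype under VitD and 0.0453 to 0.673 for the interaction. The cause was not tested in any of these. Depth limits the tested genes of lowest CPM, Adam4, Adamts16, Adamts17 and Adamts20, whose SEs in WT ran from 0.625 to 2.06.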
